A study of Mus musculus with 48 samples.

Results

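Newly made RNA credited to 10 genes of the amino acid response and the unfolded protein response was followed in mouse embryonic stem cells leaving mitosis. The genes were Atf4, Ddit3, Trib3, Chac1, Asns, Phgdh, Psat1, Herpud1, Hspa5 and Xbp1. They were taken by symbol, and all 10 were found among the 55291 gene symbols of every library. The cells, of strain 129S5/SvEvBrd, were labelled with 5-ethynyluridine, a uridine analogue that cells build into nascent RNA and by which that RNA can be captured. Clones MD09 and MD30 were Smarce1-MD lines, in which SMARCE1, part of the SWI/SNF chromatin remodelling machinery, is built to be lost in mitosis. They are called MD below. Clones A04 and A10 were Smarce1-MD(R42A) lines, called R42A below and used as the control. All cells therefore carried the construct in 1 of its forms, each line is 1 clone, and no line lacking the construct was analysed here. Asynchronous cells were compared with cells arrested in mitosis with the microtubule drug nocodazole (100 ng/ml, 6 h), shaken off and sampled at washout (0 min) and again at 45, 90, 180 and 240 min. Each clone gave 2 libraries per condition, so there were 12 groups of 4 libraries and 48 libraries in all.

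Shortage of an amino acid activates the kinase GCN2, and misfolded protein in the endoplasmic reticulum (ER) activates PERK. Both phosphorylate the initiation factor eIF2, which lowers bulk translation while favouring translation of ATF4, a transcription factor that activates genes of amino acid synthesis and uptake. The ER has 2 further sensors, ATF6 and IRE1, the latter of which splices Xbp1 mRNA, and these raise the supply of chaperones and of degradation factors. Much of this pathway is therefore set by translation, splicing and protein processing, which counts of nascent RNA do not measure.

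Promoter sequences are shown for the members in which a searched response element was found, since these elements are ones that transcription factors of both pathways are known to bind. The windows are the 250 bases before the RefSeq transcription start (GRCm38.p6, the same assembly as mm10), read 5′ to 3′ on the gene's strand, and the capitals mark the matches. All 10 members had such a window. The Hspa5 window is chr2:34771840-34772089 (+), the Herpud1 window chr8:94386179-94386428 (+) and the Chac1 window chr2:119350992-119351241 (+).
Hspa5: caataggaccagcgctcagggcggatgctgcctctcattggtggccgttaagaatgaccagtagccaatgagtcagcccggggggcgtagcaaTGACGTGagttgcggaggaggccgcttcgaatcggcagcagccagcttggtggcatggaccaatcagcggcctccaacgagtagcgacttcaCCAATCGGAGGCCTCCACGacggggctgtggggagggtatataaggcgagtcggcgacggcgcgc
Herpud1: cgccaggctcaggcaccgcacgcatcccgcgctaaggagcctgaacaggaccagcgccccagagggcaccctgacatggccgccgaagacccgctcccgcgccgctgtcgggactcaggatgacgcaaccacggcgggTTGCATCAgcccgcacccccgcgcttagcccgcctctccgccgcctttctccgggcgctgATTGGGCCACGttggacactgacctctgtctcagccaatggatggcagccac
Chac1: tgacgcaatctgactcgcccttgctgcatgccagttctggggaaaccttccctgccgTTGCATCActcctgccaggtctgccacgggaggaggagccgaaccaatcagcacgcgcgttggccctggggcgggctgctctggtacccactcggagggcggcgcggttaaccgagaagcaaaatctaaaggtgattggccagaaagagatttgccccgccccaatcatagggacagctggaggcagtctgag
In Hspa5, which encodes the ER chaperone BiP, the ER stress element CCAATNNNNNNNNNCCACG lay at -65 to -47 from the start as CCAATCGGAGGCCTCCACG. The UPRE core TGACGTG lay at -157 to -151 of the same promoter. In Herpud1, which encodes an ER membrane protein of the degradation machinery, the ERSE-II element ATTGGNCCACG lay at -52 to -42 as ATTGGGCCACG. The core of the C/EBP-ATF response element bound by ATF4, TGATGCAA, lay on the other strand of Herpud1 at -112 to -105 and of Chac1 at -193 to -186, where the gene's strand reads TTGCATCA. Both strands were searched, no 2 of these matches overlapped, and among 32851 RefSeq promoter windows of this length 37 (0.113%) held the ER stress element, 10 (0.0304%) ERSE-II, 542 (1.65%) the UPRE core and 260 (0.792%) the C/EBP-ATF core. A match describes the letters only. These exact letters were not found in the windows of the other members, and near matches were not searched for in any window.

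Library totals ran from 630119 to 3885219 counts in genes. At 90 min the MD totals were 630119 to 1518400, at 0 min those of MD and R42A were 762327 to 1022255, and every other library had at least 1634204. Both MD09 libraries at 90 min also stood apart in the share of mitochondrially encoded counts, 4.31 and 2.22%, while both MD30 libraries at 90 min, at 0.567 and 0.529%, lay within the 0.138 to 0.657% of the other 44 libraries. At 90 min the libraries of a genotype also split by replicate number in the same way in both clones. The difference of replicate 1 and 2 over 12445 features correlated between clones at 0.87 in MD and 0.38 in R42A, against 0.25 in R42A at 45 min and -0.09 to 0.00 elsewhere. Same-numbered libraries of the clones thus deviated together at 90 min, where p-values over clones may be too small, and results there are given with and without single libraries. Pluripotency markers summed to 745 to 1365 CPM (a row's counts divided by its library's total, on 1 fixed scale) in R42A and 383 to 1389 CPM in MD libraries, and 1 of the 8, Sox2, was at 0 in all. Most of that sum was Esrrb, at 805 CPM over all libraries, with Pou5f1 at 44.1 and Nanog at 17.3. Among markers of other cell types, 7 fibroblast markers summed to 2.04 to 43.2 CPM in R42A and 3.29 to 21.1 CPM in MD, and 5 neural markers, of which Sox1 and Tubb3 were at 0 in all, to 12.1 to 77.5 and 5.93 to 69.8 CPM. The 6 endoderm markers summed to 3.64 to 30.9 and 2.17 to 31.1 CPM, and the 5 trophoblast markers to 3.87 to 35.8 and 4.61 to 24.5 CPM. Smarce1 itself was at 32.3 CPM in R42A and 24.1 CPM in MD asynchronous cells, which does not check the labels because the degradation acts on the protein. Many counts were credited to features lying inside a gene on the other strand. The 2233 such features had a median of 11.6 CPM per kb of exon, against 1.39 for 27886 features not inside a gene. For 467 features inside a gene on the same strand the median was 0. These held 0.0474% of all counts, against 14.8% for those on the other strand. Among pairs on opposite strands, Kcnq1 was at 4332 CPM over all libraries and Kcnq1ot1 at 56.6, and Lrrc4 was at 3254 and Snd1 at 147. Xist was at 1457 CPM and Tsix at 14.0, and mt-Nd5 was at 1419 and mt-Nd6 at 187. Actb was at 78.8 CPM and Gapdh at 60.5. The strand setting is not given in the sources used here. Beyond these values, which strand the counts record was not tested. Each value below is therefore a count credited to the row of that name, and reads of a gene and of its partner on the other strand cannot be told apart. A rise or fall of a gene below is one of its row's counts, which may not be transcription of that gene.

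Per kb of exon, the level over all 48 libraries was highest for Ddit3 (85.4 CPM per kb), followed by Xbp1 (17.6), Atf4 (10.4), Hspa5 (7.86), Trib3 (4.76), Phgdh (4.59), Asns (2.17), Psat1 (1.55), Herpud1 (0.955) and Chac1 (0.783). Ddit3 stood above Xbp1 in 24 of 24 sums of a clone's libraries at 1 condition, and Xbp1 above Atf4 in 21. Trib3 exceeded Phgdh in 12 of 24 sums and Herpud1 exceeded Chac1 in 12, so neither of these neighbours in the order differed beyond its spread. Hspa5 stood above Trib3 in 21. The remaining neighbours were also mixed, with Phgdh above Asns in 15 and Atf4 above Hspa5 in 16. Asns stood above Psat1 in 17, and Psat1 above Herpud1 in 18. All 10 members were tested. Chac1 passed the filter on low counts only through the 4 asynchronous sums, and Herpud1 through 10 sums, namely the asynchronous ones of both genotypes and those of R42A at 0, 45 and 240 min. Their lower values elsewhere are partly fixed by that filter, and no test of Chac1 against asynchronous cells is given. The other members exceeded its cutoff of 2.26 CPM in 22 to 24 sums.

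**Figure D1:**
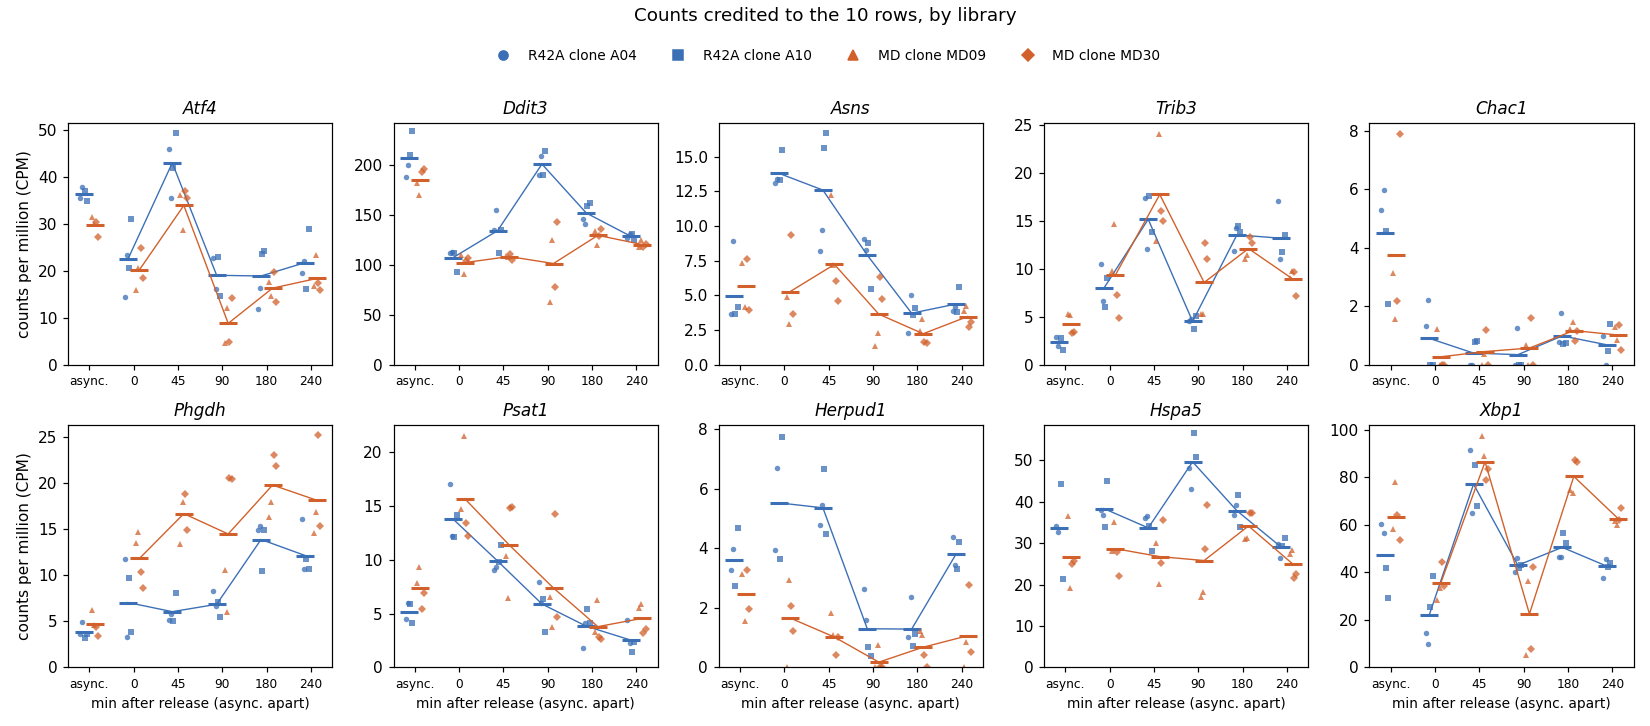
Level of each of the 10 genes in CPM (vertical axes) in each of the 48 libraries by condition (horizontal axes); symbols mark the clone, colours the genotype, bars the mean of 2 clones, and lines join the means after washout. Chac1 was at most at 2.23 CPM after nocodazole, Trib3 was lowest in asynchronous cells, and Phgdh at 45 min separated the genotypes, from 5.09 to 8.14 CPM in R42A and from 13.5 to 18.8 CPM in MD.

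How the regulators moved with mitosis and release was compared within each genotype (0 min and 240 min against asynchronous cells, 45 against 0 min, 180 against 45 min). Folds are log2 values ± standard error from edgeR's quasi-likelihood test with Benjamini-Hochberg adjusted p, n = 2 clones, and they use TMM scaling, so they differ from ratios of the printed CPM. CPM and TMM-scaled folds are both relative to the other rows of a library. A change in all RNA made per cell does not show in them, and a rise at 0 min below may not be one per cell. Libraries from 0 to 240 min, unlike asynchronous ones, came from cells shaken off after nocodazole. Comparisons with asynchronous cells include that difference. In libraries made from many cells, fewer cells making an RNA and less of it per cell cannot be told apart. Scaling by library totals alone moved the median of all genes from -0.07 to 0.32 in R42A and from -0.09 to 0.25 in MD for 0 min against asynchronous cells. For 240 min against asynchronous cells it moved from -0.12 to 0.20 in R42A and from -0.09 to 0.13 in MD, and for 180 against 45 min in MD from -0.03 to -0.15.

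Atf4 (chr15:80255184-80257541, +), the transcription factor at the centre of the integrated stress response, fell in mitotic cells and returned within 45 min. In R42A it was at 35.4, 37.8, 37.0 and 34.8 CPM in asynchronous cells, at 14.4, 23.4, 20.6 and 30.9 CPM at 0 min, and at 45.9, 35.4, 41.9 and 49.2 CPM at 45 min. All 4 libraries at 0 min lay below the asynchronous ones and below those at 45 min. The fall at 0 min was -1.10 ± 0.22 (adjusted p = 5.32e-05) and the rise by 45 min 0.99 ± 0.21 (adjusted p = 0.000182). MD clones gave -0.90 ± 0.22 (adjusted p = 0.00107) and 0.76 ± 0.22 (adjusted p = 0.00515). Atf4 then fell again by 180 min, by 1.11 ± 0.18 in R42A (adjusted p = 9.24e-07) and by 0.94 ± 0.19 in MD (adjusted p = 6.77e-05). At 240 min it was at 21.7 ± 1.08 CPM in R42A and 18.4 ± 2.32 CPM in MD (SD, n = 2), still below asynchronous cells by 1.06 ± 0.19 and 0.91 ± 0.20 on the log2 scale. The MD rise at 45 min was lost without MD09 (adjusted p = 0.0968) or MD30 (0.0955), and under DESeq2 (0.0569). The MD fall at 0 min was lost without MD09 (0.0793) and with scaling by library totals alone, where it was -0.56 (0.0595).

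Ddit3 (chr10:127290774-127296288, +), which encodes the stress-induced transcription factor CHOP, had the highest level. It fell from 207 ± 19.8 CPM in asynchronous R42A cells to 107 ± 6.84 CPM at 0 min, and from 185 ± 13.1 to 102 ± 3.84 CPM in MD. The log2 changes were -1.34 ± 0.16 (adjusted p = 2.37e-09) and -1.20 ± 0.16 (adjusted p = 4.24e-08). At 240 min it was still lower than in asynchronous cells, by 1.01 ± 0.15 in R42A and 0.84 ± 0.15 in MD. Its rise from 0 to 45 min in R42A, 0.38 ± 0.16 (adjusted p = 0.0492), did not hold without either R42A clone (adjusted p = 0.329 without A04, 0.134 without A10), nor without A10 0 min replicate 2 or replicate 2 of either clone at 45 min, nor under 9 of 10 other settings. The MD rise from 45 to 180 min, 0.38 ± 0.15 (adjusted p = 0.0353), was lost without MD09 (0.166) or MD30 (0.199) and in 8 of 14 fits that left out libraries, with library totals alone (0.116) and with replicate numbers in place of clones (0.0585), that is with libraries of both clones added by number.

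Trib3 (chr2:152337422-152344032, -), a pseudokinase that is a target of ATF4 and CHOP and dampens the response, went the other way. In R42A it was at 2.85, 1.99, 2.74 and 1.56 CPM in asynchronous cells, 10.5, 6.69, 6.06 and 9.02 CPM at 0 min, and 17.3, 12.1, 17.6 and 13.8 CPM at 45 min. The 3 sets did not overlap and rose in that order. The changes were 1.37 ± 0.42 at 0 min (adjusted p = 0.00607) and a further 0.97 ± 0.30 by 45 min (adjusted p = 0.00707), and each was lost without A04 (adjusted p = 0.0719 and 0.0641) or A10 (0.0799 and 0.151). In MD, Trib3 rose by 0.93 ± 0.28 from 0 to 45 min (adjusted p = 0.00645), which was lost without MD30 (0.203), without MD09 45 min replicate 2 (0.0927) and under DESeq2 (0.0704). At 240 min it stood at 17.1, 11.1, 11.8 and 13.5 CPM in R42A, above every asynchronous library, with a change of 2.17 ± 0.31 (adjusted p = 1.81e-07). MD libraries at 240 min were at 8.99, 9.72, 9.63 and 7.19 CPM, also above their asynchronous values of 3.26 to 5.24 CPM, with a change of 0.84 ± 0.30 (adjusted p = 0.0215). The MD change at 240 min was lost without MD09 (0.074), MD30 (0.241) or MD30 240 min replicate 1 (0.0566).

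Chac1 (chr2:119351229-119354381, +), which degrades glutathione and is a target of ATF4, was counted mainly in asynchronous cells. It was at 5.30, 5.97, 4.56 and 2.08 CPM in R42A and 3.14, 1.55, 2.17 and 7.88 CPM in MD. At 0 min it had 3 counts over the 4 R42A libraries and 1 over the 4 MD libraries. At 240 min it had 6 and 9 counts, at 0.683 ± 0.360 CPM in R42A and 1.02 ± 0.0671 CPM in MD (SD, n = 2). It passed the filter through the asynchronous sums alone, so these lower levels are a description. The asynchronous MD30 library at 7.88 CPM was the highest of its group.

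Among the enzymes of amino acid synthesis, Phgdh (chr3:98313170-98339990, -) catalyses the entry step of serine synthesis and rose over the release. In R42A it was at 5.20, 5.83, 5.09 and 8.14 CPM at 45 min and at 14.9, 15.4, 10.5 and 14.9 CPM at 180 min. These libraries did not overlap, and the change was 1.29 ± 0.24 (adjusted p = 1.05e-05). In MD it was already at 13.5, 18.0, 18.8 and 14.9 CPM at 45 min and changed by 0.36 ± 0.20 by 180 min (adjusted p = 0.142). Against asynchronous cells it was higher at 240 min in both genotypes, by 1.33 ± 0.29 in R42A (adjusted p = 0.000144) and by 1.73 ± 0.27 in MD (adjusted p = 6.8e-07). At 0 min it exceeded asynchronous cells in MD, by 1.00 ± 0.33 (adjusted p = 0.0125), a call that was lost without MD09 (0.187), MD30 (0.0604) or MD09 0 min replicate 2 (0.0641).

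Psat1 (chr19:15904678-15947337, -), the aminotransferase of the next step of serine synthesis, took the opposite course late in the release. It fell between 45 and 180 min from 9.90 ± 0.954 to 3.83 ± 1.33 CPM in R42A and from 11.4 ± 4.91 to 3.79 ± 1.47 CPM in MD. The log2 changes were -1.31 ± 0.31 (adjusted p = 0.000467) and -1.47 ± 0.32 (adjusted p = 0.000208), lost without A04 (0.074) and without MD30 (0.33). At 0 min it was at 17.1, 12.3, 12.1 and 14.2 CPM in R42A, above all 4 asynchronous libraries at 4.16 to 5.97 CPM, with a change of 1.03 ± 0.37 (adjusted p = 0.0192) that was lost without A04 (0.132), A10 (0.125) or A04 0 min replicate 1 (0.0714). In MD the same comparison gave 0.74 ± 0.33 (adjusted p = 0.069). At 240 min it was below asynchronous cells by 1.31 ± 0.42 in R42A (adjusted p = 0.0084; 0.0888 without A04, 0.159 without A10, 0.0674 with library totals alone) and by 0.89 ± 0.35 in MD (adjusted p = 0.0371). The MD call held in 6 of 24 alternative fits and was lost without any 1 of the 4 clones. The pseudogene Gm3329 lies inside Psat1 on the other strand and had 36 counts against 647 for Psat1 over all libraries.

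Asns (chr6:7675169-7693254, -), asparagine synthetase, was higher at 0 min than in asynchronous cells in R42A. It was at 13.1, 13.4, 13.3 and 15.5 CPM at 0 min in R42A against 3.67, 8.95, 3.65 and 4.16 CPM in asynchronous cells. The sets did not overlap, and the change was 1.06 ± 0.36 (adjusted p = 0.0142), lost without A10 (0.269). MD libraries at 0 min were at 4.90, 2.94, 9.32 and 3.68 CPM and overlapped the asynchronous ones, with a change of -0.46 ± 0.43 (adjusted p = 0.416). From 45 to 180 min Asns fell in both genotypes, with changes of -1.64 ± 0.30 in R42A (adjusted p = 7.79e-06) and -1.55 ± 0.38 in MD (adjusted p = 0.000711). At 240 min in MD it lay below asynchronous cells by 0.92 ± 0.38 (adjusted p = 0.0471), but this call held in 6 of 24 alternative fits and was lost without A04 (0.0753), MD09 (0.0949) or MD30 (0.351).

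Of the ER genes, Xbp1 (chr11:5520659-5525893, +), which encodes the transcription factor activated by IRE1 splicing, had the largest rise of the 10 from 0 to 45 min. In R42A it was at 14.4, 10.0, 25.4 and 38.7 CPM at 0 min and at 91.4, 64.9, 85.3 and 67.9 CPM at 45 min. In MD it was at 28.2, 33.3, 44.5 and 34.3 CPM at 0 min and at 97.3, 89.1, 79.0 and 83.3 CPM at 45 min. No library at 0 min reached those at 45 min in either genotype, and the changes were 1.88 ± 0.27 (adjusted p = 1.18e-06) and 1.3 ± 0.24 (adjusted p = 7.84e-05). Before that it had fallen from 47.3 ± 16.1 to 22.0 ± 14.0 CPM in R42A, by 1.53 ± 0.27 (adjusted p = 3.77e-05), and from 63.4 ± 6.77 to 35.4 ± 6.26 CPM in MD, by 1.18 ± 0.24 (adjusted p = 0.000258). The clones of R42A were uneven here, with A04 libraries at 10.0 to 14.4 CPM and A10 libraries at 25.4 to 38.7 CPM at 0 min, and the R42A fall was lost without A04 (adjusted p = 0.237). From 45 to 180 min Xbp1 fell in R42A by 0.52 ± 0.20 (adjusted p = 0.0339; 0.191 without A04, 0.083 without A10 45 min replicate 1), and in MD it changed by 0.01 ± 0.20 (adjusted p = 0.971).

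Hspa5 (chr2:34771970-34777547, +) stayed within 29.0 to 49.6 CPM in R42A and 25.0 to 34.2 CPM in MD as group means. It was lower at 240 min than in asynchronous cells in R42A, by 0.53 ± 0.18 (adjusted p = 0.0142), a call lost in 10 of 24 alternative fits, among them those without A04 (0.501), A10 asynchronous replicate 1 (0.238) and A10 240 min replicate 2 (0.0966). In MD it rose by 0.47 ± 0.18 from 45 to 180 min (adjusted p = 0.028), lost without MD09 (0.206), MD30 (0.114), MD09 45 min replicate 2 (0.161), MD30 45 min replicate 1 (0.0886) or MD30 180 min replicate 2 (0.0522). Herpud1 (chr8:94386438-94395377, +) was at 4.77, 5.44, 6.65 and 4.47 CPM at 45 min in R42A and at 1.03, 2.37, 0.722 and 1.12 CPM at 180 min. The sets did not overlap, and the fall was 1.91 ± 0.44 (adjusted p = 0.000315). In MD it was at or below 3.26 CPM in every library of every condition.

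Counted over the 9 members other than Chac1, 6 changed in R42A at 0 min against asynchronous cells (3 higher and 3 lower), where 46.2% of all 23874 features tested passed the same threshold. In MD 4 did (1 higher, 3 lower), where 42.6% of all features did, and with scaling by library totals alone 3 were higher and 2 lower. From 0 to 45 min, 4 rose in R42A and none fell (46.7% of all features called), and 3 rose in MD (40.2%), namely Atf4, Trib3 and Xbp1, which were also among the 4 of R42A. From 45 to 180 min, 6 changed in R42A (1 higher, 5 lower; 54.6%) and 5 in MD (2 higher, 3 lower; 47.7%), of which the 2 higher calls, Ddit3 and Hspa5, were lost with scaling by library totals alone. At 240 min against asynchronous cells 6 changed in each genotype (2 higher, 4 lower in each), where 45.3% of features were called in R42A and 43.5% in MD, and with totals alone 2 were higher and 2 lower in each. The member counts were not tested against these shares and are a description. The comparisons with asynchronous cells share those libraries, and those ending and starting at 45 min share the 45 min libraries.

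**Figure D2:**
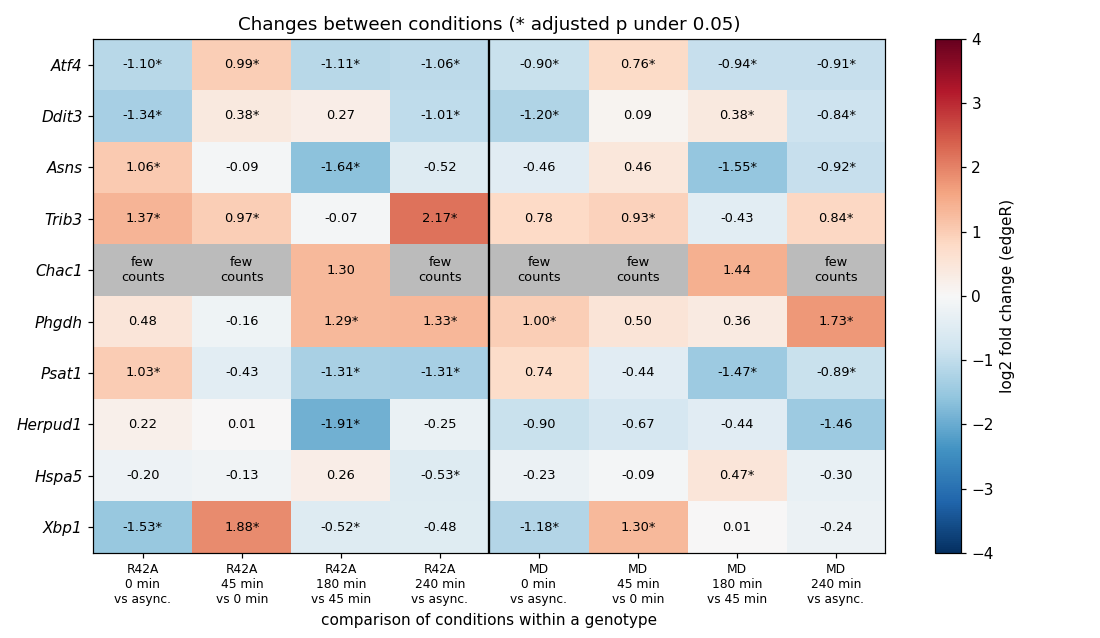
Fitted log2 change of each of the 10 genes (rows) in 4 time comparisons within each genotype (columns), coloured from lower to higher; an asterisk marks an adjusted p under 0.05, and grey cells had a group of at most 3 counts or are Chac1 against asynchronous cells. The Xbp1 rise from 0 to 45 min was 1.88 in R42A and 1.3 in MD, and Atf4, Asns and Psat1 fell from 45 to 180 min in both genotypes.

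Which members differed between MD and R42A was then compared at each condition. In asynchronous cells none of the 10 passed by edgeR's quasi-likelihood test, where 13.2% of all features did, 2 had an unadjusted p under 0.05, and limma-voom and DESeq2 also called none. At 0 min 1 member differed (6.65% of features), at 45 min 4 (17.6%), at 90 min 7 (37.7%), at 180 min none (14.0%) and at 240 min 1 (10.6%). At 180 min 2 members had an unadjusted p under 0.05, DESeq2 called none and limma-voom 1, Xbp1. The number of members whose MD libraries lay entirely to 1 side of the R42A libraries was 2 in asynchronous cells (17.3% of all features tested), 2 at 0 min (13.0%), 3 at 45 min (21.0%), 4 at 90 min (25.5%), 3 at 180 min (20.6%) and 3 at 240 min (19.9%). With 10 genes, these counts are too small to be set apart from the shares, and no difference from them was tested. The conditions also share genes and clones, so the counts are not independent of each other.

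Phgdh was higher in MD at 45 min. Its R42A libraries were at 5.20, 5.83, 5.09 and 8.14 CPM and its MD libraries at 13.5, 18.0, 18.8 and 14.9 CPM. The genotypes did not overlap, and the difference was 1.35 ± 0.25 (adjusted p = 0.000186). It passed under all 24 alternatives, with values of 1.06 to 1.54 and adjusted p of 4.47e-05 to 0.0189. In asynchronous cells the same difference was 0.15 ± 0.34 (adjusted p = 0.846), at 0 min 0.67 ± 0.36 (adjusted p = 0.3), at 180 min 0.41 ± 0.21 (adjusted p = 0.201) and at 240 min 0.55 ± 0.22 (adjusted p = 0.118). Every MD library at 180 min, at 16.3 to 23.1 CPM, still lay above every R42A library, at 10.5 to 15.4 CPM.

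Asns was lower in MD at 0 min, where MD libraries at 2.94 to 9.32 CPM did not reach the lowest R42A library at 13.1 CPM, by 1.46 ± 0.43 (adjusted p = 0.0317). This call was lost without any 1 of the 4 clones (adjusted p from 0.0637 to 0.271) and without A04 replicate 2, A10 replicate 1, A10 replicate 2, MD09 replicate 2 or MD30 replicate 2 of that time (0.0521 to 0.104). It was also lost with library totals alone (0.0592), under DESeq2 (0.0608) and with replicate numbers in place of clones (0.0524). At 45 min it was at 8.23, 9.72, 15.7 and 16.7 CPM in R42A and 12.2, 7.19, 6.01 and 4.63 CPM in MD. These libraries overlapped, and the difference of -0.91 ± 0.30 (adjusted p = 0.0303) was lost without A10 (0.479), MD30 (0.236), either A10 library, either MD30 library or MD09 replicate 2 of that time, with library totals alone (0.0811) and under DESeq2 (0.0841). Psat1 did not pass at any condition, with values between -0.07 and 0.82.

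Herpud1 was the member most lowered in MD. At 45 min its R42A libraries were at 4.77, 5.44, 6.65 and 4.47 CPM and its MD libraries at 1.84, 1.08, 0.401 and 1.03 CPM, from 53 and 9 counts. No MD library reached an R42A library, and the difference was -2.47 ± 0.53 (adjusted p = 0.00102). It passed under all 23 alternatives that gave a p, with values from -3.05 to -2.14, and DESeq2 gave none. At 240 min R42A libraries were at 4.39, 3.43, 3.30 and 4.19 CPM and MD libraries at 0, 0.845, 2.75 and 0.513 CPM, from 34 and 9 counts. They did not overlap either, and the difference was -1.88 ± 0.56 (adjusted p = 0.0264). That call was lost without A04 (0.104), A10 (0.106), MD09 (0.346), either MD09 library or MD30 replicate 2 of that time. At 0 min, with 18 and 6 counts, the libraries also did not overlap and the difference was -1.79 ± 0.69 (adjusted p = 0.123).

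Xbp1 at 180 min was at 46.3, 46.5, 56.7 and 52.5 CPM in R42A and 74.6, 73.4, 87.4 and 86.4 CPM in MD. The genotypes did not overlap, and the difference of 0.58 ± 0.21 did not pass the threshold (adjusted p = 0.0588). It passed without A10 (0.0154) or A10 180 min replicate 1 (0.0453). It also passed with the replicate block (0.0309), no filter on low counts (0.00667), DESeq2 size factors (0.0421), library totals alone (0.0312) and limma-voom (0.0196), and over all 24 alternatives the adjusted p ran from 0.00667 to 0.32 and the difference from 0.45 to 0.71. At 240 min they were also apart, at 37.6 to 45.8 CPM in R42A and 60.0 to 67.3 CPM in MD, with a difference of 0.53 ± 0.22 (adjusted p = 0.12). Ddit3 at 45 min was at 135, 155, 112 and 135 CPM in R42A and 109, 108, 111 and 104 CPM in MD. The gap between the nearest libraries was small, and the difference of -0.42 ± 0.15 (adjusted p = 0.0476) was lost without A04 (0.283), MD09 (0.188) or MD30 (0.125) and without 5 single libraries (0.0509 to 0.133), namely replicate 2 of all 4 clones and MD09 replicate 1 at that time. With library totals alone it was -0.31 (0.128), and with replicate numbers in place of clones -0.49 (0.0515).

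At 90 min the differences are set beside the depth and mitochondrial share of the MD libraries, and their part in the result was not tested. Ddit3 was at 190, 209, 190 and 214 CPM in R42A and 63.2, 125, 77.8 and 143 CPM in MD, a difference of -0.93 ± 0.16 (adjusted p = 1.68e-05). In MD its replicate 1 libraries, at 63.2 and 77.8 CPM, lay below its replicate 2 libraries, at 125 and 143 CPM. Over the alternatives the Ddit3 difference ran from -1.16 to -0.66. Hspa5 was at 48.2, 43.2, 56.5 and 50.8 CPM in R42A and 17.1, 18.2, 28.6 and 39.3 CPM in MD, a difference of -0.98 ± 0.20 (adjusted p = 0.000196). For both, all MD libraries lay below all R42A libraries, and both passed under all 23 alternatives. Xbp1 was at 40.3, 46.0, 42.03 and 43.2 CPM in R42A, but in MD replicate 1 of MD09 and MD30 was at 5.27 and 7.94 CPM and replicate 2 at 36.5 and 42.5 CPM. Its difference of -0.88 ± 0.26 (adjusted p = 0.00783) was -0.17 without replicate 1 (adjusted p = 0.708), -0.49 without MD09 90 min replicate 1 (0.227) and -0.62 without MD30 90 min replicate 1 (0.0801). Without clone MD09 it was -1.06 (0.0819) and without MD30 -0.71 (0.148). Atf4 had the same split in MD, at 4.61 and 4.76 CPM in replicate 1 and 12.2 and 14.2 CPM in replicate 2 of the clones. Its difference was -1.03 ± 0.28 (adjusted p = 0.00354), -0.22 without replicate 1 (0.683) and -0.82 without MD30 (0.0966). The other calls at 90 min were Phgdh at 0.98 ± 0.28 (adjusted p = 0.00609; 0.0533 without A10, 0.135 without MD30), Asns at -1.28 ± 0.45 (adjusted p = 0.0244; 0.114 without A04, 0.358 without MD09, 0.096 and 0.0893 without MD09 90 min replicate 1 and 2, 0.0544 without MD30 90 min replicate 2, 0.11 under DESeq2) and Trib3 at 0.84 ± 0.34 (adjusted p = 0.047; lost in 11 of 14 fits without a clone or library, with no filter, with library totals alone and under DESeq2). Without replicate 1 of every clone, 2 of the 7 calls remained, Ddit3 and Hspa5. With replicate numbers in place of clones all 7 passed, with adjusted p from 0.000464 to 0.0448.

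**Figure D3:**
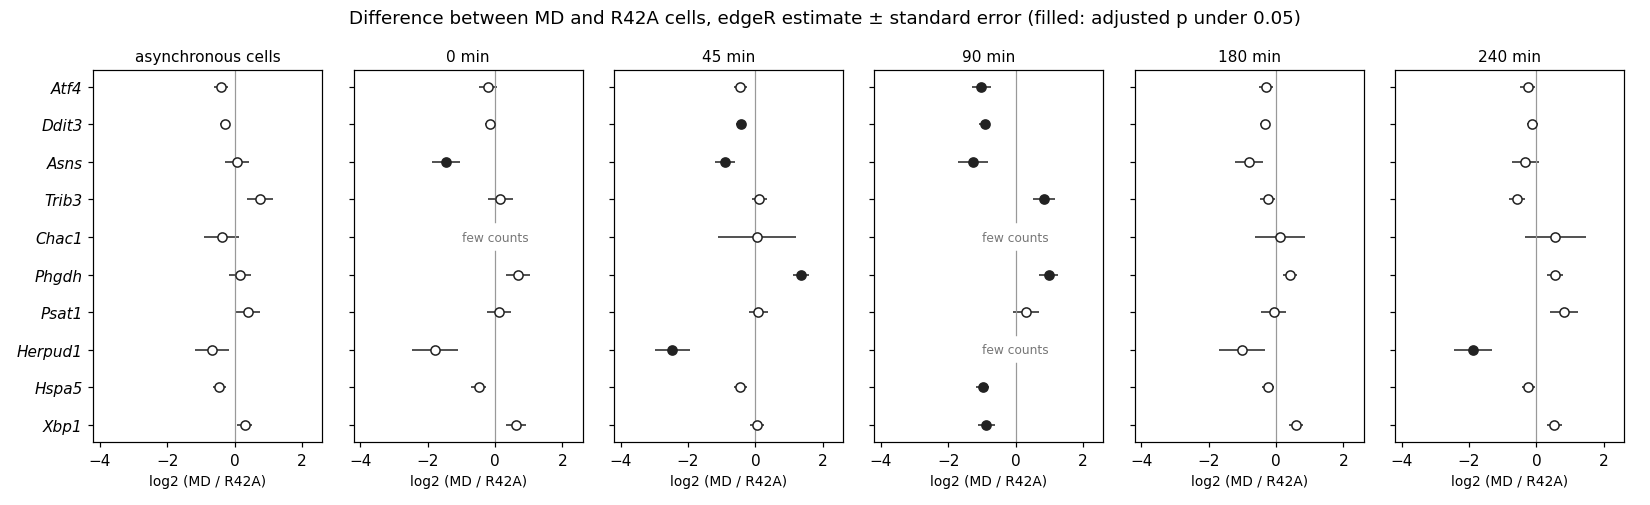
Fitted log2 difference, MD over R42A, ± standard error (horizontal axes) for each of the 10 genes (vertical axis), in a panel for each of the 6 conditions. Filled points had an adjusted p under 0.05, and no point is drawn where a group had at most 3 counts. Phgdh lay above 0 at every condition and reached 1.35 at 45 min. Herpud1 lay below 0 wherever a point is drawn, at -2.47 at 45 min.

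Whether the change over time itself differed between genotypes was tested as an interaction. No member passed for 0 to 45 min (0.142% of all features called), for 45 min against asynchronous cells (2.49%), for 0 min against asynchronous cells (1.15%), for 180 against 45 min (2.77%) or for 240 min against asynchronous cells (1.54%), the last 3 added after the data were seen. DESeq2 and limma-voom also called no member in any of the 5. The members with an unadjusted p under 0.05 numbered 0, 3, 1, 1 and 1 in that order. Against asynchronous cells at 45 min they were Phgdh, 1.18 ± 0.43 (adjusted p = 0.149), Herpud1, -1.81 ± 0.74 (adjusted p = 0.224), and Asns, -0.97 ± 0.46 (adjusted p = 0.333). The others were Asns at 0 min, -1.52 ± 0.56 (adjusted p = 0.196), Phgdh from 45 to 180 min, -0.93 ± 0.31 (adjusted p = 0.103), and Trib3 at 240 min, -1.33 ± 0.46 (adjusted p = 0.164). A genotype difference confined to 1 time was therefore not shown for any member.

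Several members lie against genes on the other strand. Ddit3 overlaps Mars1, methionyl-tRNA synthetase (GENCODE Mars, chr10:127296221-127311786, -), with 81 exon bases shared, and the non-coding Gm4189. Mars1 was at 142 ± 13.1 CPM at 0 min and 449 ± 33.6 CPM at 45 min in R42A, a rise of 1.72 ± 0.15 (adjusted p = 1.88e-12), where Ddit3 rose by 0.38. It then fell by 2.79 ± 0.15 by 180 min, where the change of Ddit3 was 0.27 ± 0.15 (adjusted p = 0.115). Rabepk (chr2:34777556-34799912, -), 9 bp beyond Hspa5, went from 161 ± 15.0 to 507 ± 134 CPM over the same 45 min, a rise of 1.70 (adjusted p = 1.79e-10), where Hspa5 changed by -0.13 ± 0.20 (adjusted p = 0.607). Herpud1 overlaps the antisense transcript Gm15890 (chr8:94379184-94386972, -) at its 5′ end. Gm15890 was at 39.1 ± 2.54 CPM in R42A and 19.5 ± 0.730 CPM in MD at 45 min, a difference of -1.11 (adjusted p = 9.07e-05), and at 29.7 ± 3.16 and 12.03 ± 1.94 CPM at 240 min, a difference of -1.31 (adjusted p = 4.14e-05). It was also lower in MD in asynchronous cells (-0.63, adjusted p = 0.0242), at 0 min (-1.43, 0.000911) and at 180 min (-0.85, 0.00521), where Herpud1 was not called, and at 90 min the difference was -0.65 (0.0572). With library totals alone the asynchronous call was lost (0.101) and the 90 min difference passed (0.0268). Whether reads of the one were credited to the other was not tested.

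**Figure D4:**
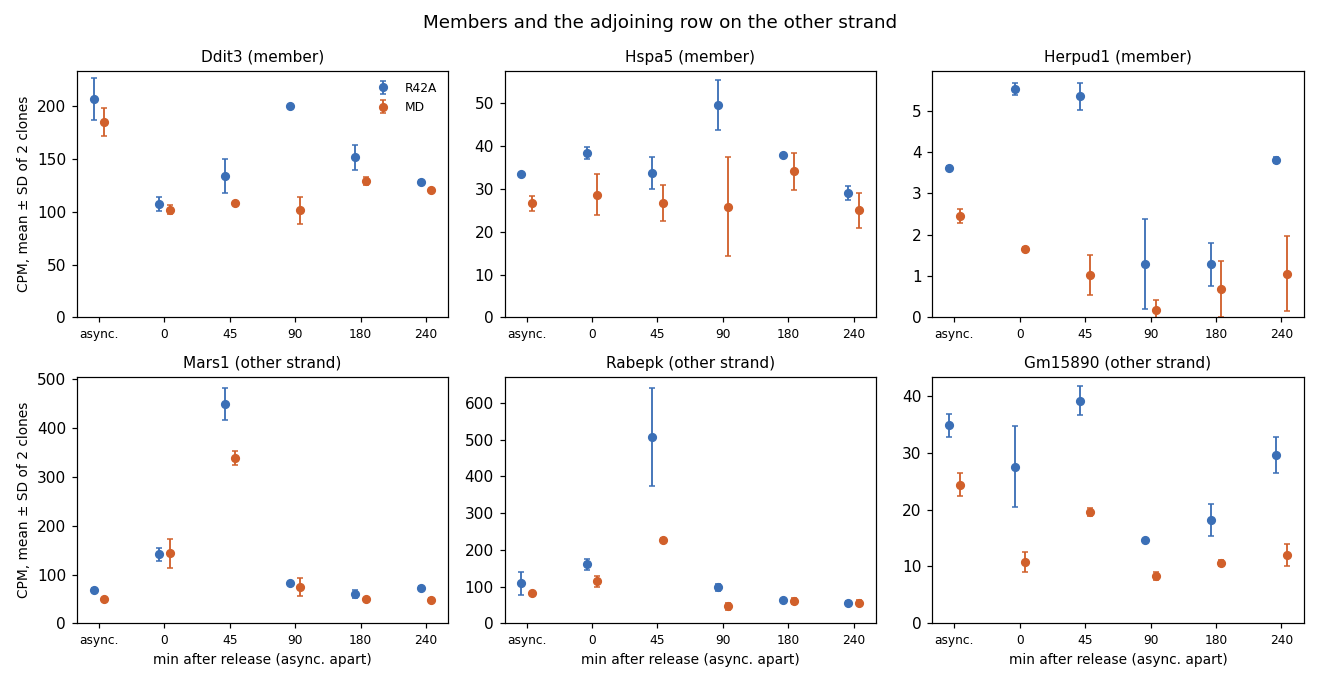
Level in CPM (vertical axes, mean ± SD of 2 clones) of Ddit3, Hspa5 and Herpud1 and of the row on the other strand next to or overlapping each (Mars1, Rabepk and Gm15890) at the 6 conditions, by genotype. Mars1 and Rabepk peaked at 45 min, at 449 and 507 CPM in R42A, where Ddit3 was at 134 and Hspa5 at 33.7 CPM.

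The wider pathway was read from lists of genes that hold none of the members, without a test of the lists. Of 20 other regulators of the integrated stress response, 11 rose and 2 fell from 0 to 45 min in R42A, with a median of 0.66 against 0.03 for all features, of which 46.7% were called. In MD 7 rose and none fell, where 40.2% of all features were called. Eif2ak4, which encodes GCN2, rose by 2.12 ± 0.16 in R42A and 1.78 ± 0.15 in MD (adjusted p = 3e-14 and 5.94e-12) and fell from 45 to 180 min by 1.55 and 1.75. Gdf15, a secreted stress factor induced by ATF4 and CHOP, rose by 1.83 ± 0.21 in R42A and 1.61 ± 0.23 in MD. All 8 calls among 10 amino acid transporters from 45 to 180 min in R42A were falls (median -0.84), and so were all 6 in MD (median -0.74), where the median of all features was 0.00 and -0.03 and 54.6 and 47.7% of them were called. Among them, the glutamine transporter Slc38a2 fell by 1.31 ± 0.19 in R42A, and Slc7a1, a carrier of arginine and lysine, by 1.10 ± 0.15 in MD.

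Of 17 ER chaperones and folding enzymes, 10 fell and 2 rose from 45 to 180 min in R42A, and 7 fell and 2 rose in MD, against the same 54.6 and 47.7% of all features, which hold for each list below. Dnajc3, a co-chaperone of BiP, was the exception with the smallest adjusted p, rising by 1.80 ± 0.19 in R42A and 1.61 ± 0.19 in MD, and Manf, a secreted factor of the ER, fell by 1.00 ± 0.20 and 0.82 ± 0.20. Of 15 genes of ER-associated degradation, 3 rose and 7 fell in R42A and 4 rose and 5 fell in MD. Of 20 aminoacyl-tRNA synthetases, 1 rose and 8 fell in R42A and none rose and 7 fell in MD. Of 13 other enzymes of amino acid and one-carbon metabolism, 4 rose and 6 fell in R42A and 4 rose and 5 fell in MD, with Aldh1l2, a mitochondrial enzyme of folate metabolism, up by 3.54 ± 0.19 and 2.26 ± 0.18. Of 7 sensors and processing enzymes of the unfolded protein response, 1 rose and 2 fell in R42A, and 1 rose and 3 fell in MD. With scaling by library totals alone, the regulators from 0 to 45 min gave 9 higher and 2 lower in R42A and 6 and 0 in MD, and the transporters from 45 to 180 min gave 8 and 7 falls and no rise. The chaperones gave 2 higher and 10 lower in R42A and 2 and 8 in MD, and the degradation genes 3 and 9 in R42A and 3 and 5 in MD. The sensors then had no rise and 2 and 3 falls, and the other enzymes 3 rises and 6 falls in MD.

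Between MD and R42A at 45 min, 1 of the 20 regulators was higher and 3 were lower, 1 transporter was higher and 3 were lower, 1 chaperone was higher and 3 were lower, 3 synthetases were lower, and none of the 15 degradation genes passed, where 17.6% of all features did. The 4 of 20 regulators are near that share. Scaling by library totals alone moved the median of all genes in this comparison from 0.01 to 0.12 and left 1 higher and no lower regulator, 1 higher and 1 lower transporter, 1 higher and 3 lower chaperones, and 1 higher and no lower synthetase. Stc2, a secreted glycoprotein induced by ATF4, was higher in MD by 1.74 ± 0.42 (adjusted p = 0.0034) at 45 min and by 1.44 ± 0.32 (adjusted p = 0.00176) in asynchronous cells. Gdf15 was lower in MD at 180 min (-0.85, adjusted p = 0.00198) and at 240 min (-1.35 ± 0.20, adjusted p = 1.44e-05). Its calls in asynchronous cells (-0.79, adjusted p = 0.0404) and at 45 min (-0.66, 0.013) were lost with scaling by library totals alone (0.12 and 0.0593). Slc1a4, a carrier of alanine and serine, was higher in MD by 1.49 ± 0.32 at 45 min (adjusted p = 0.0013). Slc7a5, the light chain of a leucine carrier, was lower by 0.83 ± 0.18 at 45 min (adjusted p = 0.00148). Calr, the ER chaperone calreticulin, was lower by 0.80 ± 0.17 at 45 min (adjusted p = 0.000935) and by 0.89 ± 0.17 at 240 min (adjusted p = 0.000635). Stc2 and Gdf15 are on 1 list, and their differences had opposite signs. Smarce1 was itself lower in MD at 45 min, by 0.88 ± 0.18 (adjusted p = 0.000537), at 180 min (-0.67, adjusted p = 0.0102) and at 240 min (-0.72, adjusted p = 0.00959).

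Among each other the members did not share 1 course. Over the 24 sums of log2 CPM, Trib3 and Phgdh ran most alike (Pearson r = 0.73), and Ddit3 ran most against Trib3 (r = -0.63) and Phgdh (r = -0.61). These are descriptions without a test, over sums that share clones, times and library depth. Among 11990 features averaging at least 5 CPM, the most similar to Phgdh was St3gal3 (r = 0.96), to Atf4 Cd151 (r = 0.96), to Ddit3 Vmn1r47 (r = 0.95), to Xbp1 and Psat1 Frmd8os and Tent4a (r = 0.92 each), to Trib3 Ak1 (r = 0.92) and to Asns Tceal8 (r = 0.90). The closest to Chac1 were Slc45a1 (r = 0.80) and Cebpg (r = 0.79), the latter one of the 20 regulators above. Chac1 passed the filter only through its asynchronous sums and had few counts elsewhere. Its r values therefore cannot be read apart from that contrast. Herpud1 and Hspa5 had no feature above r = 0.79 and 0.76.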

How the data were processed

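Nascent RNA was pulled down with a Click-iT Nascent RNA Capture kit, and a KAPA Hyper Prep kit gave the libraries, per the labels' protocols. Tools named in the submitters' processing notes, without roles, are Trim Galore 0.60, STAR 2.7.1a and RSEM 1.3.0, and the build is mm10. The deposited values are raw whole-number counts per symbol, 1 table a library, with 55291 symbols and 5 counter entries. These entries were dropped from totals (90.2 to 94.0% of a table's reads were in no feature, 0.129 to 0.262% were ambiguous). Neither the strand setting of the counting nor whether both libraries of a clone are separate cultures is given in the sources used here, so the p-values cover the spread of these clones alone. The design allowed for estimated counts, but none needed rounding. Positions are GENCODE M21 on mm10, matched by symbol for 53698 features.

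Both libraries of a clone at a condition were added together (24 sums), and the clone was the replicate. Tests used R 4.3.3 with edgeR 4.0.16 (quasi-likelihood, robust; filterByExpr with minimum count 10 and total 15, leaving 23874 features; TMM; Benjamini-Hochberg over all features at 0.05), checked on simulated data. The simulated sums were drawn independently, with no deviation shared by clone or replicate number. They therefore do not check p-values where libraries split by replicate number. Genotypes were compared through 12 group means, and times and interactions in a model that also had clone terms, with common biological coefficients of variation of 0.127 and 0.112. CPM divide a count by its library's total, with SD over 2 clones. Similarity used Pearson's r of log2 CPM, with 0.5 added to each count before scaling. Features with provisional, microRNA or small nucleolar RNA names were left out of that search. Replicate numbers did not pair libraries between genotypes, but within a genotype libraries of both clones split by number at 90 min and, in R42A, at 45 min.

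The 10 members and the lists were chosen with earlier results of these data known. Named genes were the members, Smarce1, up to 4 per list and comparison with the smallest adjusted p, and the 3 features most similar to a member, of which not all are given. Genes beside members on the other strand were added after their values were seen. Alternatives were single clones, libraries and replicate numbers dropped, the replicate block, no filter, DESeq2 size factors, limma 3.58.1 (voom), DESeq2 1.42.0, no 90 min libraries, no CT010467.2 or mitochondrial features, a nested pseudogene credited to Psat1 and, added after the data were seen, scaling by library totals alone, replicate numbers in place of clones as the replicate, and 3 further interactions.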

Additional observations from a re-analysis of the deposited data

Results flagged for a closer look

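In 120 sets of 4 libraries (10 genes, 12 groups), 10 single libraries stood apart from the other 3 by Dixon's test. For independent normal values about 1 in 20 sets, or 6, would do so by chance. Small counts and libraries shared by a clone depart from that, and a set with 3 libraries at 0 is always flagged. The numbers 10 and 6 are therefore not comparable. Atf4 was lowest at 28.75 CPM in MD09 45 min replicate 2, and Ddit3 was lowest at 92.83 CPM in A10 0 min replicate 2. Asns was highest at 8.948 CPM in A04 asynchronous replicate 2 and at 15.47 CPM in A10 0 min replicate 2. Phgdh was lowest at 10.47 CPM in A10 180 min replicate 1, and Psat1 was highest at 6.24 CPM in MD09 180 min replicate 2. Chac1 was highest at 1.225 CPM in MD09 0 min replicate 1, at 1.27 CPM in A04 90 min replicate 2 and at 1.777 CPM in A04 180 min replicate 2. Herpud1 was highest at 0.7594 CPM in MD09 90 min replicate 2, which, like the Chac1 value in MD09 at 0 min, is 1 count.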

How the results depend on the processing

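Of 1263 recomputed values of 53 called member differences, 1067 kept their call, 196 lost it (148 with a clone, library or replicate number left out, 48 otherwise) and 0 reversed. Chac1 against asynchronous cells is not among them. Under every setting that gave a p, 23 kept the call, among them Phgdh and Herpud1 at 45 min and Ddit3 and Hspa5 at 90 min between MD and R42A. Fits that left out a clone, library or replicate number also moved the share of all features called, which is given in brackets. Between MD and R42A, the number of members called was then 0 to 1 in asynchronous cells (5.23 to 13.8%), 0 to 1 at 0 min (2.34 to 6.78%), 2 to 4 at 45 min (7.63 to 18.1%), 2 to 7 at 90 min (18.9 to 42.1%), 0 to 1 at 180 min (5.56 to 14.0%) and 0 to 1 at 240 min (4.44 to 10.2%). In R42A it was 3 to 6 at 0 min against asynchronous cells (30.2 to 45.8%), 2 to 4 from 0 to 45 min (29.9 to 45.6%), 5 to 7 from 45 to 180 min (39.2 to 54.9%) and 4 to 7 at 240 min against asynchronous cells (28.0 to 44.4%). In MD it was 2 to 6 (26.1 to 41.1%), 1 to 3 (21.3 to 39.8%), 2 to 5 (29.9 to 46.0%) and 3 to 6 (27.7 to 42%) in the same order, and it was 0 in all 5 interactions.

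With scaling by library totals alone it was 0 at 0 min (6.21% of all features), 2 at 45 min (16.2%) and 1 at 180 min (12.2%) between MD and R42A, and 3 from 45 to 180 min in MD (47.0%). DESeq2 gave 0 at 0 min (8.25% of the features with an adjusted p), 2 at 45 min (17.8%) and 0 at 240 min (8.96%) between MD and R42A (no adjusted p for Herpud1 at the latter 2 times) and 1 from 0 to 45 min in MD (34.7%). Xbp1 was the 1 member called at 180 min under the replicate block (18.0% of all features), no filter (9.02%), DESeq2 size factors (13.8%), limma-voom (18.6%, correlation within clones 0.0148) and totals alone. The replicate block gave 4 at 240 min against asynchronous cells in MD (45.9%). Between genotypes, the difference of replicate 1 and 2 correlated at -0.11 to -0.02, so the numbers pair no libraries across genotypes. Between the clones of a genotype it correlated at 0.87 in MD and 0.38 in R42A at 90 min, at 0.25 in R42A at 45 min and at -0.09 to 0.00 otherwise. With replicate numbers in place of clones, added after the data were seen, 0 members were called at 0 min between MD and R42A (3.53%). Apart from the settings' own construction, the cause of these changes was not tested. Chac1 and, in MD, Herpud1 had 1 to 13 counts per group at 0 to 240 min, which limits both to large differences.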
